A study of Mus musculus with 2 samples.

Results

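The genes described here are 8 epithelial genes of the postischemic mouse kidney, namely the keratins Krt7, Krt8, Krt18, Krt19 and Krt20, the small proline-rich genes Sprr2f and Sprr1a, and Plet1. They were taken by symbol from the 32285 genes listed for each library, and they were chosen by their levels in the classes of cells of these same libraries, so the levels below are descriptions with no test. Transcripts of single kidney cells were sequenced from 2 male 9-week-old C57BL/6 mice, 24 h after bilateral ischemia-reperfusion injury. The control mouse received saline, and the other received JPI-289, an inhibitor of poly (ADP-ribose) polymerase, at 100 mg/kg into the peritoneal cavity immediately before reperfusion. With 1 library per condition there was no replicate of the mice or the libraries, and every difference below compares 1 library with the other. All intervals are 95% intervals that cover counting error only.

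Keratins are the intermediate filament proteins of epithelial cells and assemble as pairs of a type I and a type II protein. Krt8 and Krt7 are type II, and Krt18, Krt19 and Krt20 are type I. Krt8 and Krt18 are the usual pair of simple epithelia, Krt7 and Krt19 mark ducts and the urothelium, and Krt20 is known from the intestinal lining and the superficial urothelium. Small proline-rich proteins are crosslinked into the cornified envelope of stratified epithelia, and their genes are also switched on in injured simple epithelia. Plet1 encodes a membrane-anchored surface protein of epithelial progenitors and of ducts.

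On GRCm38 with the GENCODE vM21 annotation, all 8 are protein-coding genes on 4 chromosomes. Krt7 lies at chr15:101411043-101430313 on the plus strand, Krt8 at chr15:101996698-102004482 on the minus strand and Krt18 at chr15:102028180-102032027 on the plus strand, with 23.7 kb and no annotated gene between Krt8 and Krt18. Krt20 at chr11:99428403-99438150 and Krt19 at chr11:100140810-100148665 are both on the minus strand. Sprr2f at chr3:92365187-92366442 on the plus strand and Sprr1a at chr3:92483952-92485895 on the minus strand belong to the cluster of Sprr genes, with 7 other Sprr genes between them. Plet1 lies at chr9:50494525-50505482 on the plus strand. Krt8 is the member whose reads are most easily shared with a copy, since 26.9% of the 50-base windows of its transcripts also occur in those of Krt8-ps, against 0.714% for Sprr2f, shared with Sprr2e, and 0% for Krt20, Krt19 and Sprr1a. Krt7, Krt8 and Plet1 each overlap 1 gene on the opposite strand, and the sources used here do not say whether the counting used strand.

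RefSeq upstream sequences of GRCm38.p6 were held for 7 of the 8 genes. In the 250 bases before the RefSeq start, TATAAA was found on either strand in 4 of these 7, against 13.0% of 27025 such windows, and the AP-1 motif TGANTCA in 3 of 7, against 6.87%. The STAT motif TTCNNNGAA was in 0 of 7, against 7.18%. Krt20 differed most in proximal tubules, and Sprr2f had the largest share of its UMIs in principal cells. Sprr1a and Plet1 are the other members with an AP-1 match. The 4 windows with TATAAA are printed because they belong to these genes. They are chr11:99438154-99438403 (minus strand), chr3:92364937-92365186 (plus strand), chr3:92485882-92486131 (minus strand) and chr9:50494275-50494524 (plus strand), read 5′ to 3′, with the matches to both motifs in capitals:
Krt20: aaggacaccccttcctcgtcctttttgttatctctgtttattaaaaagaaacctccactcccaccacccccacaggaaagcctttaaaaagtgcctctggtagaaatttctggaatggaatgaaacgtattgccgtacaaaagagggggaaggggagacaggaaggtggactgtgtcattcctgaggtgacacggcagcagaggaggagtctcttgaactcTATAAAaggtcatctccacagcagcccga
Sprr2f: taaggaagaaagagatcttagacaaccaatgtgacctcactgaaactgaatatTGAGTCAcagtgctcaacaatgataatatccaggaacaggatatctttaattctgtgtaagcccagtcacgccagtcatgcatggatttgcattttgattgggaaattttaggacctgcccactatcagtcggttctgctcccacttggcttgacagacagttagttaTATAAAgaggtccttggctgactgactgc
Sprr1a: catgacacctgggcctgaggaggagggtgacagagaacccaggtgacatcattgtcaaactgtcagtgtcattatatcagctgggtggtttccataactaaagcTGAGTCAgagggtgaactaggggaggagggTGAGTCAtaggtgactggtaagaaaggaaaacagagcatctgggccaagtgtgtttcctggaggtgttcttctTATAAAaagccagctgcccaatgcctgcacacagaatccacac
Plet1: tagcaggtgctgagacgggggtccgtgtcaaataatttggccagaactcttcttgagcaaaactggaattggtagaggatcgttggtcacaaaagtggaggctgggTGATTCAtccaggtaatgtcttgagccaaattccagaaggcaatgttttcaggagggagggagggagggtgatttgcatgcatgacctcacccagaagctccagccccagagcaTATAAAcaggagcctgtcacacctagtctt
Sprr1a holds TGAGTCA in 2 places, Sprr2f holds it once and Plet1 holds TGATTCA once. Krt20 has no match to the AP-1 letters in this window. These matches describe the letters and were not tested as sites.

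The deposited counts of unique molecular identifiers (UMIs) summed to 38328760 (control) and 35548396 (JPI-289). Cell calling and a limit of 50% mitochondrial UMIs left 3740 and 5037 cells with medians of 2063 and 1867 UMIs, and 23 cell barcodes occurred in both. Clusters were named from marker genes, none of which is a member, and the members were left out of clustering. All PT, PC and IC markers had UMIs in both libraries, whereas the TAL marker Tmem207 was at 0 in JPI-289 TAL-like cells and the thin limb marker Sptssb at 0 in thin limb-like cells of both libraries. Unnamed clusters held 111 control and 429 JPI-289 cells. The largest of them, with 10 and 248 cells, had Krt20 at 220 CPM and Krt8 at 113 CPM. The list for injured PT led it with a score of 1.40, but EC came next at 0.50 and PT was at 0.45. It was therefore not counted among PT-like cells. A level is given as counts scaled to 1000000 UMIs of the class (CPM), and a share of cells as the share with at least 1 UMI after each cell was thinned to 1000 UMIs, with shallower cells left out. In these whole-kidney libraries, RNA released from lysed cells can give UMIs in any class, so values in neutrophil-like cells are given beside the shares. Levels are compared for the same gene only.

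Most members had their highest tubule level in the collecting duct. Among classes of at least 30 cells, Krt8, Krt18, Krt19, Sprr2f and Plet1 were highest in principal cell (PC)-like cells of the collecting duct in both libraries. For Krt7 this held in the control, while in the JPI-289 library its highest level was in intercalated cell (IC)-like cells, where its 1202 CPM were close to the 1102 of PC-like cells. There 1 cell held 67 of its 222 UMIs. Several other settings, among them equal weight per cell and list genes kept for clustering, put the JPI-289 maximum of Krt7 in PC-like cells. Sprr1a was highest in cells of the thick ascending limb (TAL) in both libraries. In the control 56 of its 98 UMIs there came from 3 cells. In the JPI-289 library 34 of its 73 UMIs there came from 1 cell, and without that cell its 62.1 CPM became 33.2. IC-like cells were at 54.1 CPM with 10 UMIs, and PC-like cells at 44.2 with 19 of 59 UMIs in 1 cell. The order of these classes thus rests on few cells. Other settings put the JPI-289 maximum of Sprr1a in PC-, IC- or thin limb-like cells. Its control maximum moved to thin limb-like cells with equal weight per cell. In thinned cells it moved to cells of the distal convoluted and connecting tubule. Krt20 was highest in thin limb-like cells in the control, at 152 CPM with 55 of its 74 UMIs in 3 cells. Its control maximum moved to podocyte-like cells with list genes kept for clustering and to mural-like cells of the vessel wall when thinned. In the JPI-289 library Krt20 was highest in proximal tubule (PT)-like cells, at 727. The small urothelium-like cluster, with 21 control and 3 JPI-289 cells, had higher levels than any of these for Krt7, Krt8, Krt18, Krt19 and Sprr1a in both libraries.

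**Figure D1:**
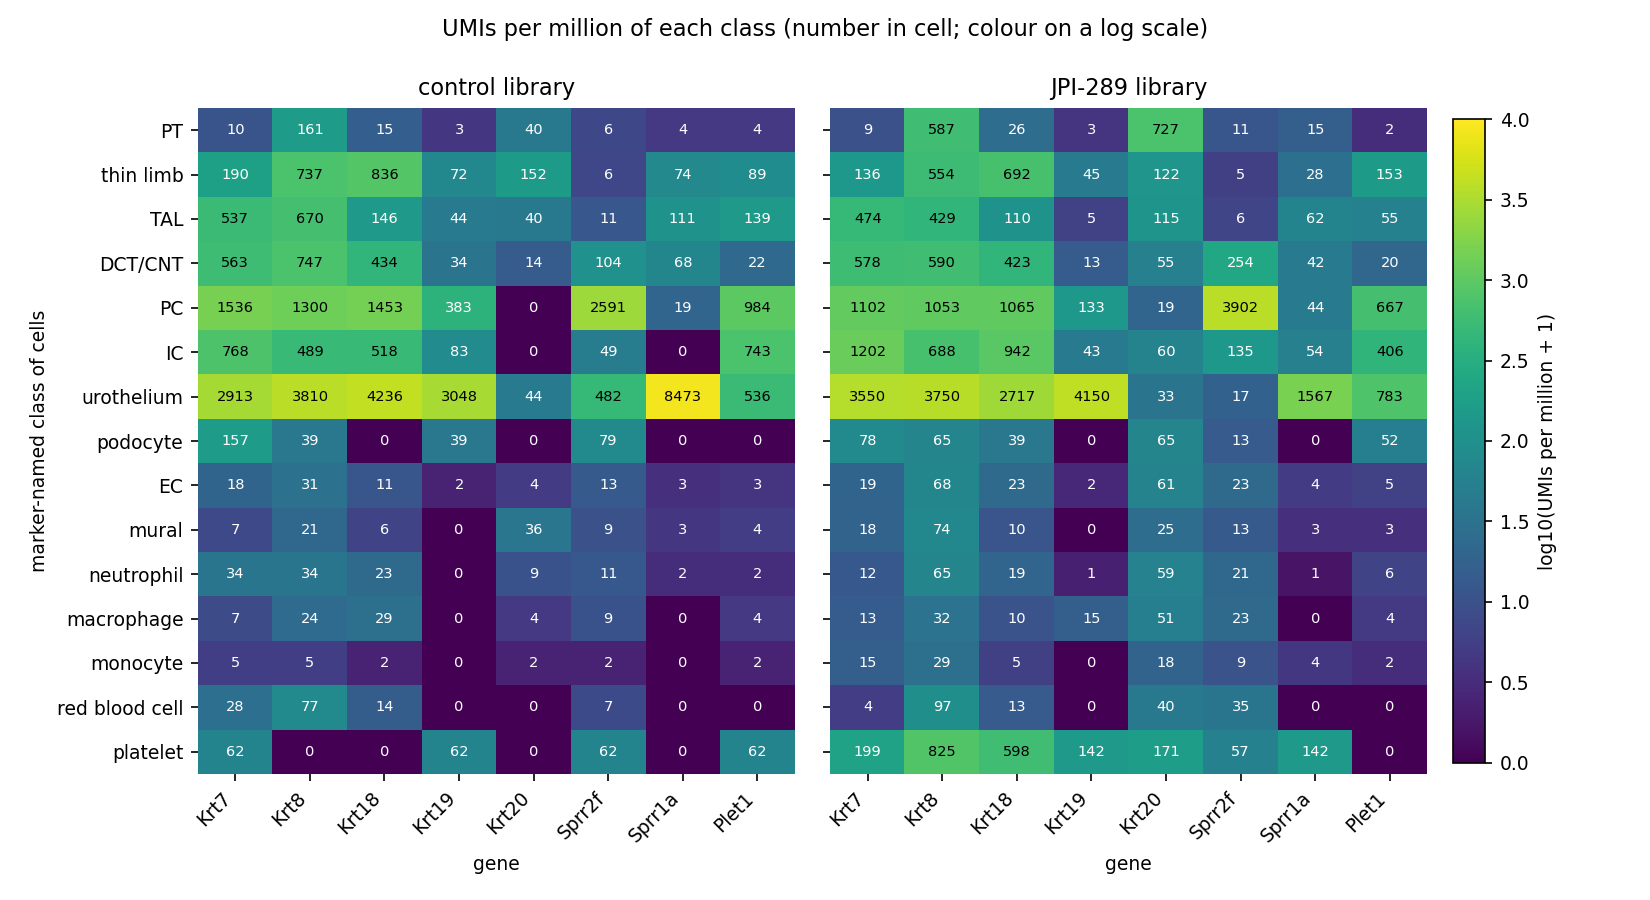
Level of each gene in CPM, printed in each field and coloured on a log10 scale, for 15 marker-named classes (rows) and the 8 genes (columns) in the control (left) and JPI-289 (right) library. Krt20 in PT-like cells is 40.2 on the left and 727 on the right, and Sprr2f stands out in PC-like cells on both sides.

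PT-like cells are the reabsorbing cells that line the first stretch of the tubule. They are the class in which Krt20 stood out in the JPI-289 library. Krt20 had 326 UMIs in 1789 control cells and 5335 in 1641 JPI-289 cells. This is 40.2 CPM (95% Poisson interval 35.9 to 44.8) against 727 (708 to 747), a log2 ratio of 4.18 (4.02 to 4.34). Krt8, the type II keratin of simple epithelia, had 1311 and 4307 UMIs, or 161 and 587 CPM, and its log2 ratio was 1.86 (1.77 to 1.95). Sprr1a had 29 and 112 UMIs with a log2 ratio of 2.08 (1.5 to 2.74), but 70 of the 112 came from 1 cell, and without the cell richest in Sprr1a in each library the ratio was 0.83 (0.10 to 1.60). Thus 3 of 8 members were at least 2-fold higher in the JPI-289 library, or 2 without that cell, and 0 were at least 2-fold lower. Over all 11313 genes with at least 20 UMIs in these cells, 9.11% were at least 2-fold higher and 23.7% at least 2-fold lower. The contrast was used to choose the members, so nothing is read from these counts. The median log2 ratio was 0.79 over the members and -0.19 over all genes measured.

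The other members were rare in PT-like cells. Krt18, the usual partner of Krt8, had 119 and 189 UMIs and a log2 ratio of 0.81 (0.47 to 1.16). Sprr2f had 52 and 80 UMIs with a ratio of 0.76 (0.25 to 1.30). Its 6.40 and 10.9 CPM were below the 11.5 and 21.1 of neutrophil-like cells, where the ratio was also 0.76 (-0.48 to 2.59). Krt7, Krt19 and Plet1 had between 17 and 81 UMIs in each library, and their log2 ratios of -0.15, -0.14 and -0.61 had intervals that included 0. In JPI-289 PT-like cells Krt18 was at 25.8 CPM, against 1065 CPM in the PC-like cells of that library.

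Thinned to equal depth, a Krt20 UMI was found in 3.88% of 1341 control PT-like cells (exact binomial interval 2.91 to 5.05), against 36.0% of 1137 with JPI-289 (33.2 to 38.8). Before thinning the shares were 11.7% and 55.6%. Neutrophil-like cells, thinned alike, had Krt20 in 0.565% and 6.37%. Their median depths were 1973 and 2035.5 UMIs, against 2266 and 1860 UMIs for PT-like cells. For Krt8 the thinned shares were 13.0% (11.3 to 15.0) and 35.7% (32.9 to 38.6), with 3.39% and 7.23% in neutrophil-like cells, and 33.7% and 58.4% of PT-like cells before thinning. At least 2 Krt20 UMIs were found in 0.298% of thinned control cells and 13.3% of thinned JPI-289 cells, and at least 2 Krt8 UMIs in 2.24% and 11.5%. The shares in PT-like cells of the JPI-289 library were thus well above those in a cell type that should lack both keratins. In barcodes under 100 UMIs, which hold mostly free RNA, Krt20 was at 24.9 CPM (control) and 390 CPM (JPI-289), the latter below the 727 of the PT-like cells of that library. Krt8 was at 254 and 399 CPM there, above the 161 of control and below the 587 of JPI-289 PT-like cells. Krt18 was at 122 and 108 CPM there, above the 14.7 and 25.8 of PT-like cells.

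**Figure D2:**
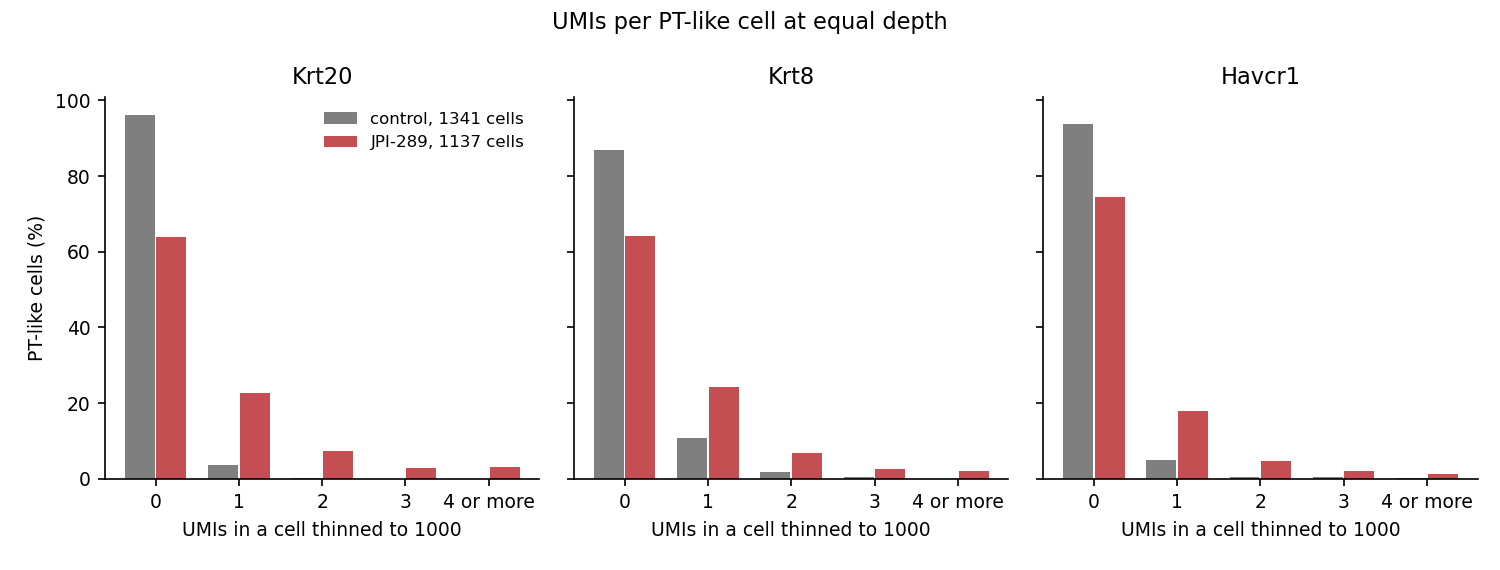
Share of PT-like cells (y axis, %) with 0, 1, 2, 3 or 4 or more UMIs (x axis) of Krt20, Krt8 and Havcr1 after thinning to 1000 UMIs, in 1341 control (grey) and 1137 JPI-289 (red) cells. The JPI-289 bars are taller at every number of UMIs above 0, and 64% of JPI-289 cells had no Krt20 UMI against 96.1% of control cells.

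PT-like cells fell into clusters that each came almost wholly from 1 library, 4 from the control and 3 from JPI-289, with at least 95.2% of cells from the larger library. Condition, library and cluster therefore cannot be told apart in this class. Krt20 was between 22.5 and 87.0 CPM in the 4 control clusters and at 318, 674 and 1131 in the 3 JPI-289 clusters. Krt8 was between 111 and 189 in the former and at 524, 613 and 627 in the latter. The unnamed cluster led by the injured PT list, with 10 control and 248 JPI-289 cells, is not among these. It had 220 CPM of Krt20 and 113 of Krt8. Havcr1, which encodes the kidney injury molecule KIM-1 and is no member, ran from 26.4 to 353 in the control clusters and from 193 to 845 in the JPI-289 clusters. Havcr1 is on the injured PT marker list used in naming clusters. The control cluster with 353 CPM of Havcr1 had 55 of Krt20 and 177 of Krt8, and the JPI-289 cluster with 193 of Havcr1 had 674 of Krt20 and 627 of Krt8. Over the class, Havcr1 went from 115 to 455 CPM, a log2 ratio of 1.99 (1.88 to 2.09). The 14 PT markers summed to 10223 CPM (control) and 4124 CPM (JPI-289), and the part of this difference in the keratin values was not tested.

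Within the JPI-289 PT-like cells, Havcr1 was found more often in cells with Krt20 than in cells without it. Of 409 thinned cells with Krt20, 33.5% (28.9 to 38.3) also had Havcr1, against 21.2% (18.2 to 24.3) of the 728 cells without Krt20. These cells pool several clusters, and the one with most Krt20 (1131 CPM) also had most Havcr1 (845 CPM). The shares were not split by cluster, so differences between clusters and between cells cannot be told apart. Krt8 was found in 39.1% (34.4 to 44.0) of the cells with Krt20 and in 33.8% (30.4 to 37.4) of those without, and these intervals overlap. Krt18 was in 2.44% and 3.30%. In the control, 11.5% (4.35 to 23.4) of 52 cells with Krt20 and 5.97% (4.74 to 7.41) of 1289 cells without it had Havcr1, and these intervals overlap.

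Cells of the TAL showed another pattern. Here 262 control and 375 JPI-289 cells came from a single cluster that held both libraries. Krt7 had 474 and 558 UMIs, or 537 and 474 CPM. Krt8 was at 670 and 429, with a log2 ratio of -0.64 (-0.82 to -0.47), and Krt18 at 146 and 110, with a ratio of -0.42 (-0.78 to -0.05). Krt19 had 39 and 6 UMIs, a log2 ratio of -3.02 (-4.65 to -1.87), and Plet1 123 and 65 UMIs, a ratio of -1.33 (-1.79 to -0.89). These are 44.2 and 5.10 CPM for Krt19 and 139 and 55.3 CPM for Plet1. In barcodes under 100 UMIs, Krt19 was at 43.1 and 17.5 CPM and Plet1 at 97.5 and 46.5. In neutrophil-like cells Krt19 had 0 and 2 UMIs and Plet1 had 1 and 9. Krt20 had 35 and 135 UMIs and a ratio of 1.52 (0.99 to 2.11). Single cells gave 22 of the control UMIs and 92 of those with JPI-289, and without those cells the ratio was 1.26 (0.38 to 2.32) and the JPI-289 level was 37.4 CPM, below the 59.0 in neutrophil-like cells. Sprr1a had 98 and 73 UMIs and a ratio of -0.84, or -1.37 (-1.98 to -0.80) without the richest cells, but 0.26 with equal weight per cell and 0.21 in thinned cells. Of 7 members measured, 1 was at least 2-fold higher, where the share over all genes was 8.03%, and 2 were at least 2-fold lower, where it was 10.8%. The median log2 ratio was -0.64 over these members and -0.05 over all genes.

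The share of TAL-like cells with Krt8 pointed the same way, at 42.9% (35.5 to 50.6) of thinned control cells against 24.3% (19.3 to 29.8) with JPI-289, or 56.5% and 41.6% before thinning. TAL-like and PT-like cells therefore had Krt8 in opposite order, with a log2 ratio of -0.64 in the former and 1.86 in the latter. That difference between classes was not tested, as each rests on 1 library per condition. In control TAL-like cells Krt18 was found in 26.3% (16.9 to 37.7) of 76 cells with Krt8 and in 7.92% (3.48 to 15.0) of 101 without. Hemoglobin and other red cell markers summed to 1321 CPM in control and 94.4 in JPI-289 TAL-like cells, and their part in these values was not tested.

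**Figure D3:**
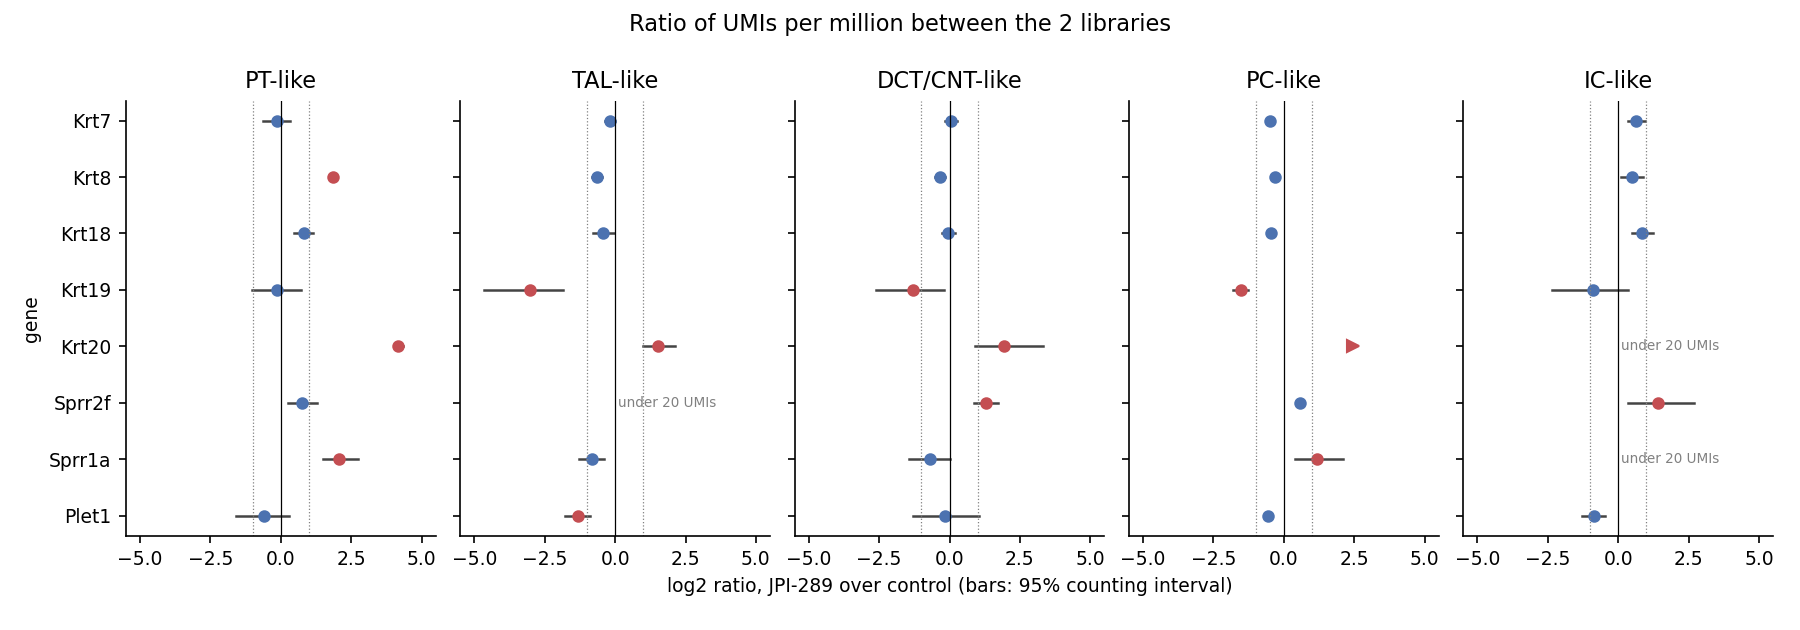
Log2 ratio of CPM, JPI-289 over control (x axis), for the 8 genes (y axis) in 5 tubule classes. Points are ratios with 0.5 UMI added, red from a ratio of 2-fold, bars are 95% counting intervals, dotted lines mark 2-fold, and the triangle is a lower bound for Krt20 in PC-like cells, which had 0 control UMIs. Krt20 and Krt8 lie far to the right in PT-like cells, and Krt19 lies to the left in TAL-like and PC-like cells.

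The collecting duct held most of Sprr2f. PC-like cells, which carry the water channel Aqp2 and numbered 74 (control) and 379 (JPI-289), held 80.2% of the control Sprr2f UMIs in cells and 92.2% of those with JPI-289, although they held 5.04% and 7.46% of all UMIs. Sprr2f had 2181 and 5204 UMIs there, or 2591 (2484 to 2702) and 3902 (3797 to 4010) CPM, a log2 ratio of 0.59 (0.52 to 0.66). In thinned cells it was found in 56.2% (43.3 to 68.6) of 64 control cells, against 87.6% (83.7 to 90.8) of 362 with JPI-289, or 74.3% and 93.4% before thinning, against 0.565% and 2.58% of neutrophil-like cells. Median depths were 8930.5 and 1539 UMIs in PC-like cells. The number of JPI-289 cells named PC-like depended on the setting. It was 131 from 1000 UMIs, 117 at up to 20% mitochondrial UMIs, 106 with the first calling step only and 139 at resolution 0.5. It was 371 without the highest doublet scores, 377 with list genes kept and 379 with each library clustered alone. Of the 362 thinned JPI-289 cells, 264 belonged to subcluster 3, described below. In the control, 43.8% of thinned PC-like cells had 0 Sprr2f UMIs while 29.7% had 4 or more.

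Krt7, Krt8, Krt18, Krt19 and Plet1 had lower CPM in the JPI-289 PC-like cells. Krt7 was at 1536 and 1102 CPM, a log2 ratio of -0.48 (-0.59 to -0.37), Krt8 at 1300 and 1053, a ratio of -0.30 (-0.42 to -0.19), and Krt18 at 1453 and 1065, a ratio of -0.45 (-0.56 to -0.34). Plet1 was at 984 and 667, a ratio of -0.56 (-0.70 to -0.42). Krt19 had 322 and 177 UMIs, 383 and 133 CPM and a ratio of -1.53 (-1.80 to -1.26). The order for Krt8 did not hold with equal depth per cell, as thinned PC-like cells had a mean of 1.06 Krt8 UMIs in both libraries. Over the whole collecting duct the Krt8 ratio was 0.21 in thinned cells and -0.10 (-0.21 to 0.01) without the richest cell of each library, and without that cell the Krt18 ratio was also -0.10 (-0.21 to 0.01). Of 8 members measured, 2 were at least 2-fold higher in PC-like cells, where 9.27% of genes were, and 1 was at least 2-fold lower, where 13.6% were. The former were Krt20 and Sprr1a, with 0 and 26 and with 16 and 59 UMIs, and the latter was Krt19.

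Over the collecting duct, PC-like and IC-like cells summed, Krt20 had 0 of 1046113 control UMIs, where a floor of 3 counts is 2.87 CPM, and 37 JPI-289 UMIs. It was at least 8.5-fold higher there against a floor of 3 counts, but its 24.4 CPM were below the 59.0 in neutrophil-like cells. Sprr1a had 16 and 69 UMIs, a log2 ratio of 1.54 (0.77 to 2.46), with 36 of the 69 in 3 cells. Together with Krt20 it made 2 of 8 members at least 2-fold higher, where 7.97% of all genes were. This count was between 0 and 2 under other settings. Krt19, with 339 and 185 UMIs and a ratio of -1.41 (-1.68 to -1.15), was the 1 member at least 2-fold lower, where 13.7% of all genes were. The median log2 ratio was -0.23 over the members and -0.08 over all genes.

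PC-like cells fell into 3 subclusters, each mostly or wholly from 1 library. Subcluster 1 had 66 control and 0 JPI-289 cells, subcluster 2 had 4 and 99, and subcluster 3 had 4 and 280. Subclusters 1 and 2 were deep, with medians of 9497 control and 8980 JPI-289 UMIs, while the JPI-289 cells of subcluster 3 had a median of 1444.5. The 7 neutrophil markers summed to 12.2, 11.9 and 1729 CPM in the control cells of subcluster 1 and the JPI-289 cells of subclusters 2 and 3, in that order, and the 12 PC markers to 14884, 9142 and 4307. Their part in the values was not tested. Sprr2f was at 2598, 4108 and 3439 CPM in these 3, and in 55.9%, 65.3% and 95.8% of their thinned cells. Plet1 was at 993, 633 and 744, Krt8 at 1318, 1032 and 1100, and Krt7 at 1538, 1243 and 783. By CPM, Sprr2f was therefore higher, and Krt7, Krt8, Krt18, Krt19 and Plet1 were lower, in each JPI-289 subcluster than in the control one. Over all PC-like cells, the lower Krt8 did not hold at equal depth per cell, with a mean of 1.06 UMIs in both libraries. In subcluster 1 a single cell held 246 of the 1201 Krt18 UMIs.

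**Figure D4:**
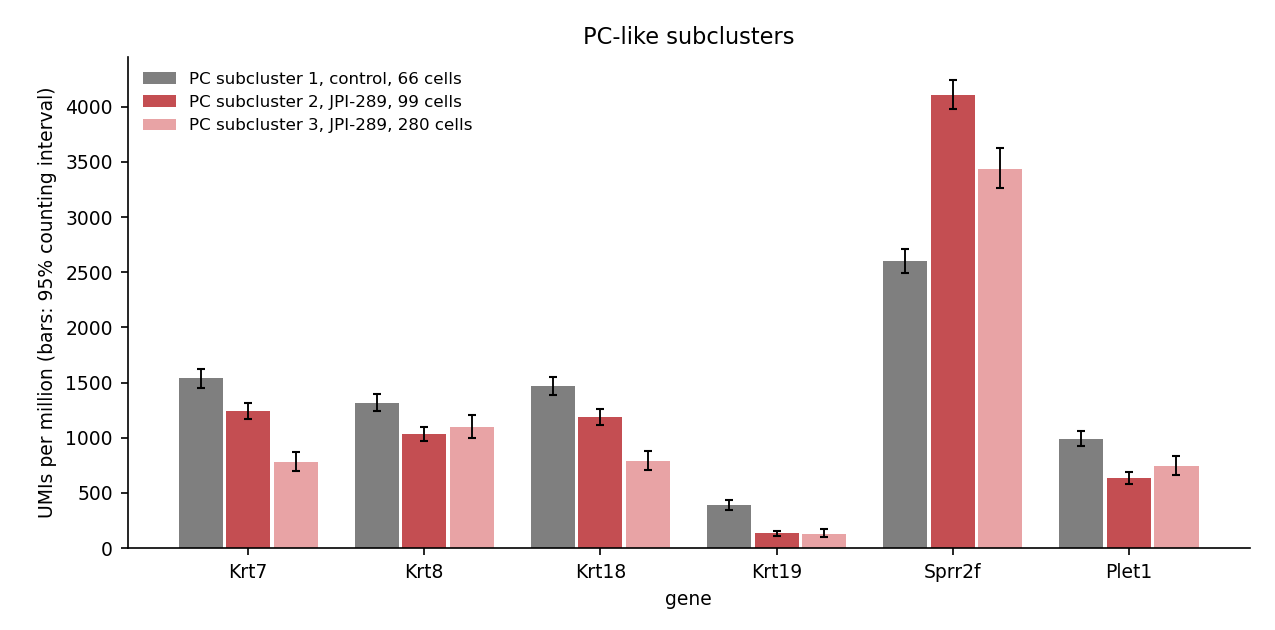
Level in CPM (y axis, from 0) of 6 genes in PC-like subcluster 1 (66 control cells, grey), subcluster 2 (99 JPI-289 cells, red) and subcluster 3 (280 JPI-289 cells, pink), with 95% Poisson intervals. Sprr2f is lowest in the control subcluster, and the other 5 genes are highest in it.

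In the 362 thinned JPI-289 PC-like cells, Plet1 was in 56.2% (50.5 to 61.7) of cells with Sprr2f and in 24.4% (12.9 to 39.5) of the 45 without. These cells pool 98 of subcluster 2 and 264 of subcluster 3, which differed in their share of cells with Sprr2f. The shares were not split by subcluster, so differences between subclusters and between cells cannot be told apart. In the 64 control cells the shares were 63.9% (46.2 to 79.2) and 57.1% (37.2 to 75.5), which overlap. Krt8 was in 64.1% (57.0 to 70.8) of JPI-289 cells with Krt7 and in 62.2% (54.3 to 69.6) of those without.

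IC-like cells, the cells of the collecting duct that handle acid and base, numbered 46 and 63. Krt18 was at 518 and 942 CPM, a log2 ratio of 0.86 (0.51 to 1.22), and Krt7 at 768 and 1202, a ratio of 0.65 (0.35 to 0.95), in the opposite order to the PC-like cells. Single cells held 67 of the 222 JPI-289 UMIs of Krt7 and 40 of the 174 of Krt18. In the control they held 31 of 157 and 22 of 106. Plet1 was at 743 and 406, a ratio of -0.87 (-1.29 to -0.46). Of 6 members measured, 1 was at least 2-fold higher, where 13.1% of genes were, and 0 were at least 2-fold lower, where 8.81% were. The former was Sprr2f with 10 and 25 UMIs, 16 of the 25 in 1 cell.

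Cells of the distal convoluted and connecting tubule (DCT/CNT), 227 and 279, carried Krt7 at 563 and 578 CPM, Krt8 at 747 and 590 and Krt18 at 434 and 423. The JPI-289 number depended on the setting. It was 545 at up to 20% mitochondrial UMIs, 550 with list genes kept and 551 without the highest doublet scores. It was 488 with each library clustered alone and 126 at resolution 0.5. Ratios of this class were not rerun under these settings. Of 8 members, 2 were at least 2-fold higher, where 8.12% of genes were, and 1 was at least 2-fold lower, where 9.76% were. The former were Krt20, with 8 and 41 UMIs and a log2 ratio of 1.95 (0.90 to 3.32), and Sprr2f, with 61 and 189 UMIs and a ratio of 1.28 (0.87 to 1.73). Of the 189 Sprr2f UMIs, 121 came from 3 cells, and the 55 CPM of Krt20 were below the 59.0 of neutrophil-like cells. The latter was Krt19, with 20 and 10 UMIs.

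In thin limb-like cells, 31 and 44, Krt18 was at 836 and 692 CPM and Krt8 at 737 and 554. Of 7 members measured, 0 were at least 2-fold higher, where 10.5% of genes were, and 1 was at least 2-fold lower, where 12.6% were. This was Sprr1a, with 36 and 12 UMIs, 22 of the 36 in 1 cell. Krt20 was at 152 and 122 CPM, and 41 of its 52 JPI-289 UMIs came from 1 cell.

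Outside the tubule, endothelial cell (EC)-like and neutrophil-like cells show the level of keratin UMIs in cells that should not use simple-epithelial keratins. EC-like cells came from 3 clusters, of 206 and 38, 293 and 350, and 1 and 181 cells. Of 5 members measured in them, 3 were at least 2-fold higher, where 5.21% of genes were, and 0 were at least 2-fold lower, where 18.6% were. Krt20 had 8 and 105 UMIs there, a log2 ratio of 3.83 (2.88 to 5.16), Krt8 61 and 116, and Krt18 21 and 40, with 16 of the 40 in 1 cell. In neutrophil-like cells 1 of 5 was at least 2-fold higher, where 11.5% of genes were, namely Krt20 with 4 and 95 UMIs, and 1 was at least 2-fold lower, where 10.5% were, namely Krt7 with 15 and 19 UMIs. In the JPI-289 library Krt20, Krt8 and Krt18 were at 61.2, 67.6 and 23.3 CPM in EC-like cells and at 59.0, 64.6 and 19.3 CPM in neutrophil-like cells, against 727, 587 and 25.8 CPM in PT-like cells. Other classes could be higher. Control Krt20 was at 36.4 CPM (33 UMIs) in mural-like cells, against 40.2 in PT-like, 3.65 in macrophage-like and 1.54 in monocyte-like cells. JPI-289 Krt8 was at 825 CPM in platelet-like cells, where 14 of 29 UMIs came from 1 cell. It was at 97.1, 73.8, 32.4 and 29.4 CPM in red blood cell-, mural-, macrophage- and monocyte-like cells.

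Urothelium-like cells, marked by uroplakins, held most of the control Krt19 and Sprr1a. The 21 control cells, with a median of 34311 UMIs, held 95.8% of the Sprr1a UMIs in control cells, 81.0% of those of Krt19, 53.7% of Krt18, 43.0% of Krt7 and 37.8% of Krt8, from 3.97% of all UMIs in cells. Sprr1a was at 8473 CPM there, with 4307 of its 5613 UMIs in 3 cells. Only 3 such cells were found in the JPI-289 library, with 94 Sprr1a UMIs. Over all barcodes of the libraries Sprr1a had 6480 and 668 UMIs, a log2 ratio of -3.17 (-3.29 to -3.05), and Krt19 3084 and 740, a ratio of -1.95 (-2.07 to -1.83). In such totals, fewer cells of a type and less RNA per cell cannot be told apart. Over all barcodes Krt20 had 1348 and 13084 UMIs, a ratio of 3.39 (3.31 to 3.47), and Sprr2f 4707 and 9293, a ratio of 1.09 (1.04 to 1.14).

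**Figure D5:**
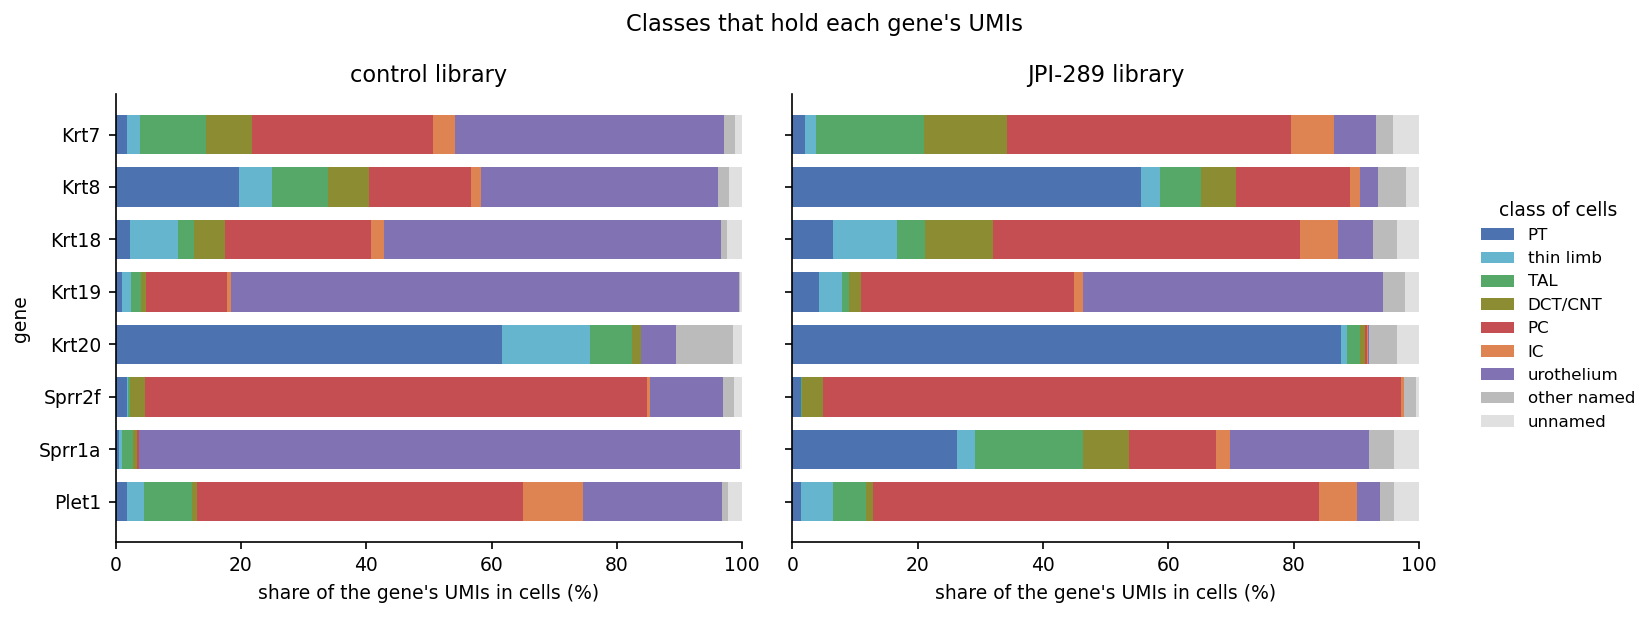
Share of each gene's UMIs in cells (x axis, %) that lies in each class of cells, for the control (left) and JPI-289 (right) library. PT-like cells hold 61.7% of control and 87.6% of JPI-289 Krt20 UMIs, from 48.6% and 41.1% of all UMIs in cells. Urothelium-like cells hold 95.8% of control Sprr1a UMIs, from 3.97%.

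The patterns over 25 sums of class and library, from 13 classes of at least 30 cells, were set beside those of the other genes as a description, since points of 1 library share its depth and free RNA. The genes most like Sprr2f on the log2 scale were Aqp2 (Pearson r = 0.963), A930017K11Rik (0.940) and Fxyd4 (0.93). Aqp2 and Fxyd4 are on the PC marker list used in naming clusters, so their likeness to Sprr2f is not independent of the naming. Those most like Krt18 were Cldn7, Cldn4 and Cldn3, which encode claudins of the tight junction (0.977, 0.977 and 0.974). Krt7 was closest to Cldn3 (0.967), Pou3f3 (0.960) and Cdh1 (0.957), and Krt8 to Spint2 (0.956), Cystm1 (0.949) and Crb3 (0.93). The highest coefficients for Krt20 were lower, with Fga (0.819), Pdk4 (0.814) and Fgb (0.774), where Fga and Fgb encode chains of fibrinogen. Fgb is also on the injured PT marker list used in naming clusters. Krt19 and Plet1 were both closest to Cgn, a tight junction gene (0.934 and 0.931). Krt19 was also close to Epb41l4a (0.915), and Plet1 to Cxadr (0.918). Sprr1a was closest to Slc25a35 (0.911), Las1l (0.86) and Rsph9 (0.859). Urothelium-like cells, which held 95.8% of the Sprr1a and 81.0% of the Krt19 UMIs in control cells, were too few to enter these sums. In the sums used, Sprr1a UMIs could come from very few cells, such as 70 of 112 from 1 cell in JPI-289 PT-like cells.

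Most other genes of the same families had under 20 UMIs in a class and were not measured. Of 24 other keratins, 2 were measured in PT-like cells, 1 in TAL-like cells and 3 in PC-like cells. In PT-like cells Krt10 had 179 and 226 UMIs, a log2 ratio of 0.48 (0.19 to 0.77), and Krt5, a basal cell keratin, 7 and 20 UMIs, a ratio of 1.60 (0.36 to 3.15). In TAL-like cells Krt10 had 7 and 25 UMIs. In PC-like cells Krt23 had 41 and 141 UMIs, a ratio of 1.11 (0.61 to 1.66), Krt10 had 14 and 43, and Krt80 had 26 and 28. Of 21 other small proline-rich and cornified envelope genes, 3 were measured in PT-like, 1 in TAL-like and 3 in PC-like cells. Sprr2d, a neighbour of Sprr2f, had 0 and 38 UMIs in PC-like cells and was at least 7.99-fold higher in the JPI-289 library against a floor of 3 counts. Evpl, which encodes envoplakin, had 50 and 6 UMIs in PT-like cells, a ratio of -2.81 (-4.43 to -1.69), while the transglutaminase Tgm1 had 295 and 231 and Ppl 81 and 112.

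Of 12 desmosome and keratin linker genes, 9 were measured in PT-like cells, 10 in TAL-like cells and 9 in PC-like cells. In PT-like cells 1 was at least 2-fold higher and 0 lower, where 9.11% and 23.7% of all genes were. This was Dsg2 with 8 and 15 UMIs, a log2 ratio of 1.01 (-0.28 to 2.50) whose interval includes 0. Perp had 668 and 850 UMIs there, and the linkers Dst and Pkp4 had log2 ratios of -0.81 (-1.0 to -0.63) and -0.84 (-1.04 to -0.64). In TAL-like cells Eppk1, an epiplakin that binds keratins, had 8 and 43 UMIs, a ratio of 1.94 (0.91 to 3.31), and Pkp4, Plec and Jup were at -0.29, -0.76 and 0.36. The medians over the linkers were 0.27 and -0.22 in these classes. In PC-like cells 0 of 9 passed 2-fold in either direction, and Jup, the plakoglobin gene, had a ratio of 0.71 (0.48 to 0.94), with Plec at -0.25, Dsp at 0.36 and a median of 0.39.

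Of 19 injury-responsive surface and stress genes, 17 were measured in PT-like cells, of which 7 were at least 2-fold higher and 1 lower, where 9.11% and 23.7% of all genes were. The median log2 ratio was 0.82 against -0.19 over all genes. This list was chosen with earlier results of these data known, so nothing is read from its counts or medians in any class. Lgals3, the galectin-3 gene, had 1433 and 9178 UMIs, a log2 ratio of 2.82 (2.74 to 2.91), S100a10 had a ratio of 1.65 (1.60 to 1.71) and S100a11 one of 0.82 (0.76 to 0.87). Cd44, a hyaluronan receptor, had 1 and 22 UMIs, a ratio of 4.05 (1.98 to 9.97), and Hbegf, a ligand of the epidermal growth factor receptor, had a ratio of -1.48 (-1.67 to -1.29). In TAL-like cells 0 of 16 were at least 2-fold higher and 6 lower, where 8.03% and 10.8% of all genes were, and the median was -0.61 against -0.05. S100a6 had 381 and 77 UMIs there, a ratio of -2.71 (-3.09 to -2.37), Anxa1 90 and 19, a ratio of -2.63 (-3.46 to -1.93), and Ly6a a ratio of -1.12 (-1.21 to -1.03). S100a11 and Cd24a were at -0.22 and -0.09. In PC-like cells 2 of 16 were at least 2-fold higher and 0 lower, where 9.27% and 13.6% of all genes were. These were Anxa1 at 1.2 (0.95 to 1.45) and Emp1 at 1.08 (0.81 to 1.36), with Cldn4 at 0.87 (0.79 to 0.96), S100a11 at 0.39 and Ly6a at -0.68. The median was 0.18 against -0.06. Of 12 genes listed for urothelium, 0 were measured in PT-like or TAL-like cells and 2 in PC-like cells. There Gata3 had a ratio of -0.80 (-1.22 to -0.38) and Elf5 one of -1.41 (-2.18 to -0.69). Elf5 is also 1 of the 12 PC markers used for naming, and Gata3 also had 27 and 16 UMIs in DCT/CNT-like cells. Neither value is therefore particular to urothelium. The 6 urothelium markers used for naming had 5 and 7 UMIs in PC-like cells. The 12 PC markers summed to 14660.5 CPM in control and 7655.5 CPM in JPI-289 PC-like cells.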

How the data were processed

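The authors aligned reads of 2 single-cell libraries to mm10 with Cell Ranger (5.0.1 in the submitters' processing notes) and deposited raw UMI counts per gene for every barcode. Cells were called here in 2 steps, by total UMIs and then, from 500 UMIs, by their difference from empty droplets (false discovery rate 0.01). Cells of over 50% mitochondrial UMIs were left out. Scanpy 1.11.5 clustered them (2000 variable genes without members and list genes, 30 components, 20 neighbours, Leiden resolution 1). A cluster was named from its leading marker list, by a rule written with the clusters in view. A cluster led by a list for injured PT, which holds Havcr1, Fgb and Fgg, was named PT-like where the PT list came next. The clusters of 935 and 363 JPI-289 cells were named so, with injured PT scores of 1.34 and 2.21 and PT scores of 0.859 and 0.864. One led by lists of different lineages was divided once more or left unnamed. Scrublet marked 2 of 8777 cells, so it did not work here, and doublets were left in. UMIs were summed per class and library, and log2 ratios have 0.5 UMI added and an exact conditional binomial interval. Genes needed 20 UMIs over both libraries. No test between conditions was made. The steps were tested on simulated data. The members and lists were chosen with earlier results of these data known. The text names all members, per list the 3 genes with most UMIs and up to 2 that differed most in each direction (in PT-, TAL- and PC-like cells), and the 3 genes most like each member, of which 2 are not reported here. Depth was 38328760 and 35548396 UMIs, which leaves counts under about 20 with wide intervals.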

Additional observations from a re-analysis of the deposited data

Results flagged for a closer look

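Outside the named cells, 3 values were at least 2-fold above the control. In barcodes under 100 UMIs, Krt20 was at 390 CPM in the JPI-289 library against 24.9 in the control, and Sprr2f at 207 against 93.0. In barcodes of over 50% mitochondrial UMIs, Krt20 was at 89.7 against 22.9. Falls were not flagged, but some were as large. In barcodes under 100 UMIs, Sprr1a was at 20.4 CPM in the JPI-289 library against 118 in the control, and Plet1 at 46.5 against 97.5. Krt19 was at 17.5 against 43.1, with an interval that included 0. In barcodes of over 50% mitochondrial UMIs, Sprr1a had 0 UMIs against 11 and Krt19 had 1 against 6. Krt8 was above the control by less than 2-fold, at 399 against 254 CPM in barcodes under 100 UMIs and at 111 against 59.6 in barcodes of over 50% mitochondrial UMIs. Sprr1a stood in opposite order in different classes, with log2 ratios of 2.08 in PT-like and 1.19 in PC-like cells and -1.36 in thin limb-like cells. This difference was not tested. Most of these Sprr1a UMIs came from very few cells, since 1 cell held 70 of 112 in JPI-289 PT-like cells, 1 held 22 of 36 in control thin limb-like cells and 3 held 36 of 59 in JPI-289 PC-like cells.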

How the results depend on the processing

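Krt20 and Krt8 were at least 2-fold higher in JPI-289 PT-like cells under every alternative run, with log2 ratios from 3.73 to 4.37 and from 1.71 to 2.05. Krt19 was at least 2-fold lower in TAL-like cells under every alternative that measured it, from -3.81 to -2.64. Sprr1a in PT-like cells turned to -0.27 with equal weight per cell, and Krt8 in collecting duct-like cells ranged from -0.45 to 0.21. Of 361 ratios of members under alternatives, 284 stayed within the counting interval of the reported value. The count of members at least 2-fold higher in TAL-like cells went from 1 to 2 at resolution 0.5 and to 0 with each library clustered alone, where 1142 JPI-289 cells had no name, and the count at least 2-fold lower from 2 to 1 with a gene minimum of 100 UMIs and to 3 under 6 settings. Sprr1a there ranged from -3.93 to 0.26. In collecting duct-like cells the count at least 2-fold higher went from 2 to 1 with list genes kept for clustering, at least 1000 UMIs, the highest doublet scores left out, equal weight per cell, cells thinned to 1000 UMIs or PC-like subcluster 3 left out. It went to 0 with the first step of cell calling only, at most 20% mitochondrial UMIs, resolution 0.5 or a gene minimum of 100 UMIs. The count at least 2-fold lower there went from 1 to 0 with each library clustered alone, equal weight per cell or thinned cells. Causes were not tested beyond the construction of each setting. Thinning, shared barcodes, PC-like subcluster 3 and the richest cell were alternatives chosen after seeing the data. No paired analysis was possible because each condition had 1 library and no test was made.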

Other observations

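In IC-like cells, 7 of 16 injury-responsive genes measured were at least 2-fold higher and 1 lower, where 13.1% and 8.81% of all genes were, with S100a6 at 53 and 518 UMIs, Lgals3 at 108 and 890, Cldn4 at 221 and 469 and Ly6a at 402 and 73. The median log2 ratio was 0.74 over these 16 and 0.15 over all genes measured. As the list was chosen with earlier results known, nothing is read from these counts, and the number of IC-like cells depended on the setting. In DCT/CNT-like cells 3 of 16 were at least 2-fold higher and 1 lower, where 8.12% and 9.76% were. In platelet-like cells of the JPI-289 library, 20 of the 21 Krt18 UMIs came from 1 cell.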
